A study of Mus musculus with 20 samples.

Results

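Late enhancers are described here: regions of the macrophage genome whose transcription was at least 2 times higher after 15 h of stimulation than after 3 h. They were chosen from 11222 enhancers with deposited tag counts by a rule with 2 conditions. An enhancer needed 30 or more tags over the 20 libraries, which 3969 met, and a mean level over the 6 stimulated libraries at 15 h of at least 2 times the mean over the 6 stimulated libraries at 3 h. The rule left 729 late enhancers, 3240 other enhancers of 30 or more tags, and among the others 485 with the opposite ratio (3 h at least 2 times 15 h).

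The libraries came from macrophages grown with M-CSF from the bone marrow of C57BL/6 mice and were made by nAnT-iCAGE, which counts the capped 5' ends of RNA without amplification. At 3, 9 and 15 h the cells had received interferon gamma together with CpG oligodeoxynucleotide (both stimuli), CpG alone, or interferon gamma alone (IFN-γ), and the cells they are set against were unstimulated at 0 h. Each of these 10 groups held 2 libraries, which the series calls biological replicates. No untreated cells were sampled at 3, 9 or 15 h, so every comparison with 0 h also contains time in culture. The labels' protocol text also has macrophages polarized with IL-4 plus IL-10 and stimulated for a length that is not among the sampled times; whether these libraries passed either step is not said. Enhancer counts hold no gene expression, so the labelled cell type was not checked against markers. Whole libraries held 12776280 to 13855472 tags and enhancers 12879 to 29794 of them (0.0991% to 0.220%); the 2 libraries of IFN-γ at 9 h differed in this share, with 0.128% and 0.179%.

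Active enhancers are transcribed in both directions into short capped RNAs, and the number of capped 5' ends counted at an enhancer is read as its activity. IFN-γ is sensed by a receptor at the cell surface that signals through JAK kinases. CpG DNA is sensed in endosomes by TLR9, which signals through MyD88 to NF-κB and AP-1. In macrophages the immediate targets of these pathways respond early, and a later wave depends on newly made factors, secreted cytokines and chromatin changes. The oligonucleotide is shown because all CpG groups rest on it; the protocol text names CpG ODN-1826, and its 2 GACGTT hexamers, each with an unmethylated CG, are in capitals.
CpG ODN-1826: tccatGACGTTcctGACGTT

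A late enhancer held 30 to 604 tags over all libraries, with a median of 48. Levels are given as RPM, the deposited values relative to all tags of a library. The median late enhancer stood at 0.147, 0.0866, 0.212 and 0.265 RPM at 0, 3, 9 and 15 h, and the median of the 3240 other enhancers at 0.184, 0.220, 0.197 and 0.189 RPM. The values at 3 h and 15 h chose the enhancers and are a description. Closest to the threshold inside it were chr5:139389530-139390066, with a ratio of 15 h to 3 h of 2.001, chr19:38015381-38015602 with 2.005 and chr8:117979464-117979876 with 2.007. Just outside were chr14:54670562-54671505 with 1.999, chr1:85631336-85631832 with 1.997 and chr7:19003504-19004276 with 1.995. Positions are those of mm39, as deposited.

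The summed level of the 729 late enhancers was 158 ± 3.38 RPM at 0 h (mean ± SD, n = 2, as in the sums that follow). At 3 h it was 92.6 ± 21.0 RPM with both stimuli, 97.7 ± 2.96 RPM with CpG and 67.7 ± 13.7 RPM with IFN-γ. At 9 h it was 198 ± 6.07 RPM with both, 215 ± 4.80 RPM with CpG and 191 ± 48.7 RPM with IFN-γ, and the wide spread of the last is that of 226 and 157 RPM in its 2 libraries. At 15 h it was 336 ± 50.7 RPM with both, 251 ± 11.5 RPM with CpG and 182 ± 2.57 RPM with IFN-γ. The low sums at 3 h and the high sums at 15 h are those the rule selected, and nothing is read from them. Between stimuli, whose order the rule did not set, the sum at 15 h was highest with both and lowest with IFN-γ, with no overlap between libraries. The sum over all 3969 enhancers of 30 or more tags had the same order at 15 h, also without overlap. It was 1195 and 1505 RPM with both, 1128 and 1073 RPM with CpG and 918 and 966 RPM with IFN-γ. As a share of a library's enhancer tags, late enhancers took 10.2% at 0 h. They took 4.86%, 7.48% and 5.87% at 3 h with both, CpG and IFN-γ, then 14.6%, 13.4% and 12.4% at 9 h and 18.1%, 16.6% and 14.1% at 15 h, in the same order of stimuli. The share did not carry the spread between the libraries of IFN-γ at 9 h, which had 12.3% and 12.6%. In these bulk samples fewer cells with a transcript and less transcript per cell cannot be told apart.

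**Figure D1:**
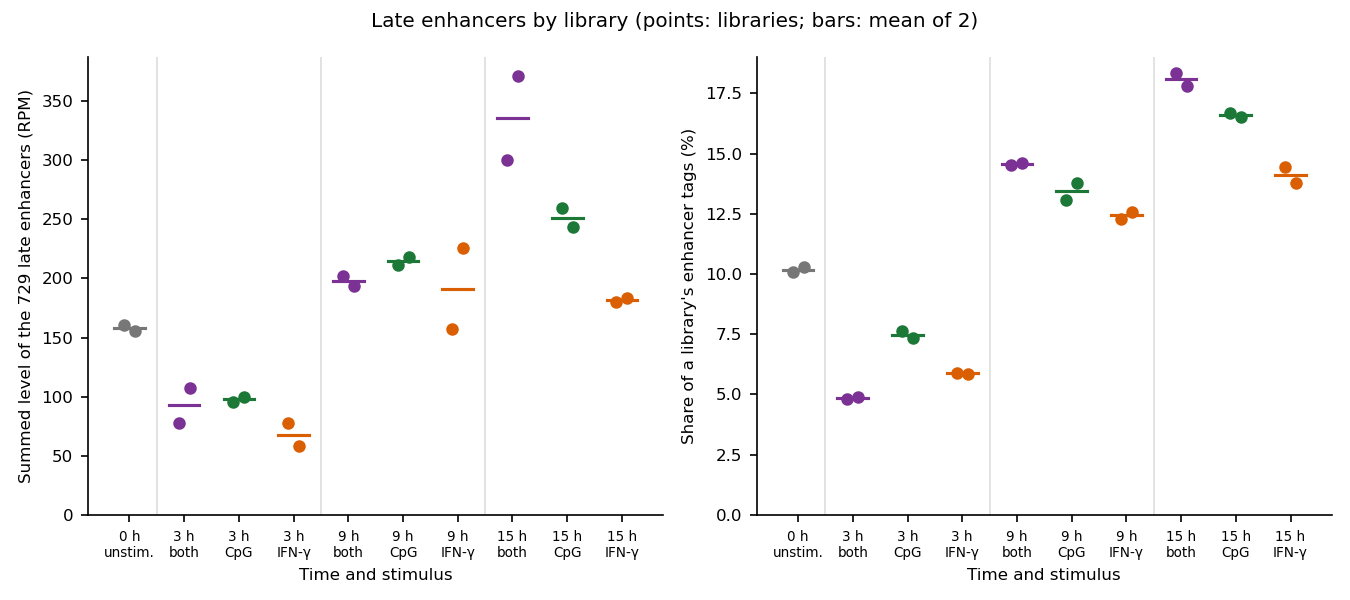
Summed level of the 729 late enhancers in RPM (left) and their share of a library's enhancer tags in percent (right), by time and stimulus; points are libraries and bars the mean of 2. The members were chosen for low levels at 3 h and high levels at 15 h. At 15 h both stimuli (336 RPM) lie above CpG (251 RPM) and IFN-γ (182 RPM), an order also found in the sum over all 3969 enhancers of 30 or more tags. At 9 h the 2 IFN-γ libraries lie apart (226 and 157 RPM).

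The 9 h mean lay strictly between the 3 h and 15 h means in 493 of 729 late enhancers and exceeded the 15 h mean in 203. Since the rule set 3 h low and 15 h high, these numbers only describe where 9 h stood. By stimulus, the level at 15 h was at least 2 times that at 3 h in 580 enhancers with both stimuli, in 485 with CpG and in 421 with IFN-γ, which restates the rule by stimulus; with IFN-γ the 15 h level was at or below the 3 h level in 158.

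At 9 h both stimuli gave the highest of the 3 levels in 26.7% of late enhancers, CpG in 40.5% and IFN-γ in 32.8%, close to the 23.4%, 40.5% and 36.1% of the other enhancers. At 15 h both stimuli were highest in 49.1% (358 enhancers), CpG in 32.0% (233) and IFN-γ in 18.9% (138), beside 39.6%, 34.6% and 25.8% of the others. These shares were not tested, and the 15 h levels are among those the rule chose high.

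The level in unstimulated cells, which the rule did not use, differed widely among late enhancers. Set against the 15 h mean, which it did use, the 0 h level gave 3 classes that serve as a description. In 338 late enhancers (46.4%, against 31.3% of the other enhancers) the 15 h mean was at least 2 times the 0 h level. Medians of this class were 0.223 RPM at 9 h and 0.0372 RPM at 0 h. In 347 (47.6%, near the 46.8% of the others) the 15 h and 0 h levels were within 2-fold of each other. Here the medians were 0.233 RPM at 9 h and 0.255 RPM at 0 h. A 3 h level below 0 h follows in that class from the rule and the class limits. In the remaining 44 (6.04%, against 21.9% of the others) the 0 h level was at least 2 times the 15 h mean. Their medians were 0.146 RPM at 9 h and 0.386 RPM at 0 h. On TMM-scaled counts, which are relative to enhancer tags, the classes held 354, 341 and 34.

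**Figure D2:**
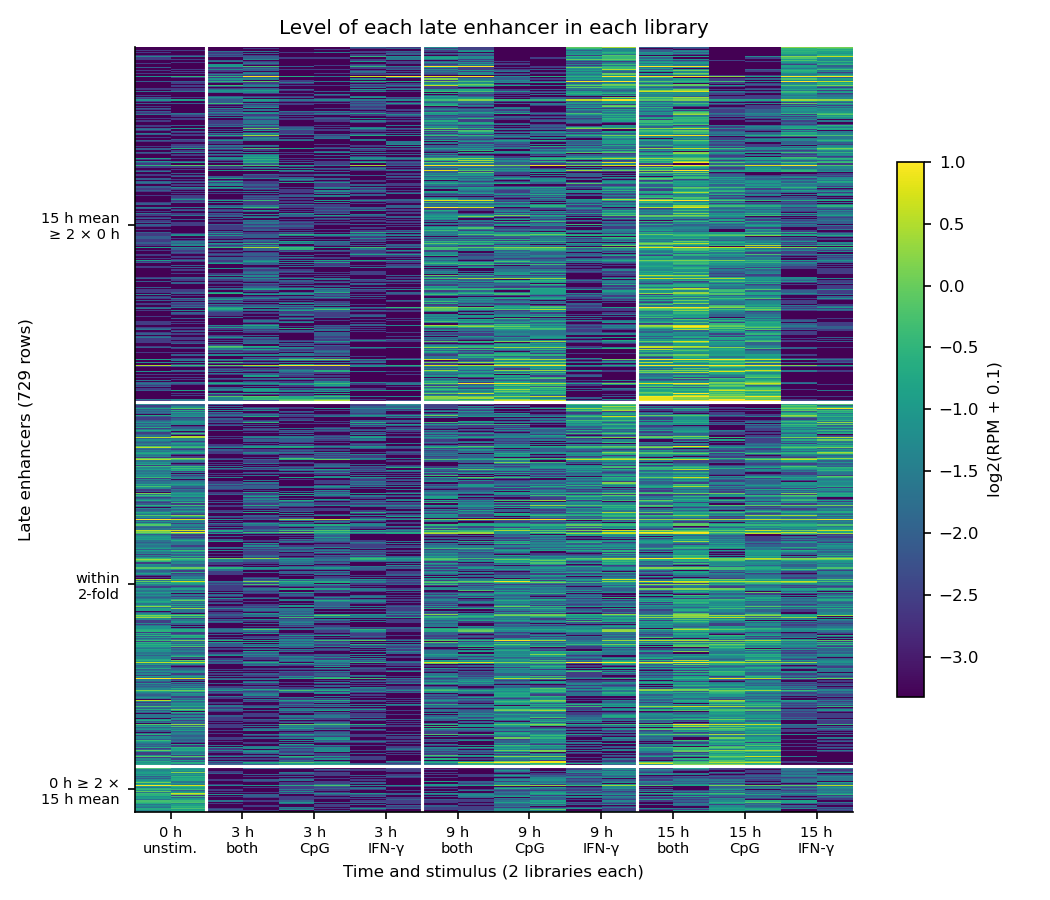
Level of each of the 729 late enhancers (rows) in each of the 20 libraries (columns, by time and stimulus) as log2(RPM + 0.1); white lines part the 338, 347 and 44 enhancers of the 3 classes by 15 h against 0 h, and rows within a class run from low to high CpG over IFN-γ at 15 h. The dark columns at 3 h and bright columns at 15 h are the choice of members. At 9 h the first class is brighter than at 0 h (medians of 0.223 and 0.0372 RPM) and the third darker (0.146 and 0.386 RPM). The classes were set by the 0 h level, so these directions against 0 h are a description and no independent result.

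Whether late enhancers were already above unstimulated cells at 9 h was tested on raw counts with edgeR's quasi-likelihood test over the 2792 enhancers with enough tags, with Benjamini-Hochberg adjustment and a threshold of adjusted p under 0.05. Of the 729, 489 were tested. The other 240 held 30 to 62 tags (median 35). Their median levels were 0.111, 0.0621, 0.149 and 0.191 RPM at 0, 3, 9 and 15 h, and 83 of them had a 9 h mean at least 2 times the 0 h level while 33 had the reverse. Because the filter on low counts can be passed through the stimulated groups alone, counts below concern the 489 and not all 729.

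Taking the 3 stimuli together, 48 late enhancers rose and 17 fell at 9 h against 0 h. Of all 2792 tested enhancers 16.4% were called, 6.59% higher and 9.81% lower, so the rises were more frequent (9.82%) and the falls less frequent (3.48%) among late enhancers than in the background, a difference that was not itself tested. The median log2 change was 0.60 in late enhancers and 0.11 in all tested. Of the 48 rises, 20 were among the 75 tested late enhancers without any tag at 0 h, which could not fall. The other 28 were among the 414 with a tag at 0 h (6.76%), whose median log2 change was 0.26. The 6.59% above covers all tested enhancers, with or without a tag at 0 h, so it is no like background for these 414. Scaled to whole-library totals in place of enhancer tags, the calls were 30 rises and 19 falls (61.2% rises in place of 73.8%). Without the first 0 h library the median log2 change was 0.71 in late enhancers and 0.24 in all tested, and without the second 0.70 and 0.17. Far fewer calls were made without either 0 h library, in late enhancers as in all tested.

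Counted one by one without a model, the 9 h mean was at least 2 times the 0 h level in 308 of 729 late enhancers (42.2%) and in 31.5% of the other enhancers, and the reverse held in 87 (11.9%) and in 21.2% of the others. All 6 stimulated libraries at 9 h lay above both 0 h libraries in 63 late enhancers (8.64%, against 5.90% of the others) and below both in 35 (4.80%, against 12.2%). In 334 (45.8%, near the 47.3% of the others) the 9 h and 0 h levels were within 2-fold of each other.

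**Figure D3:**
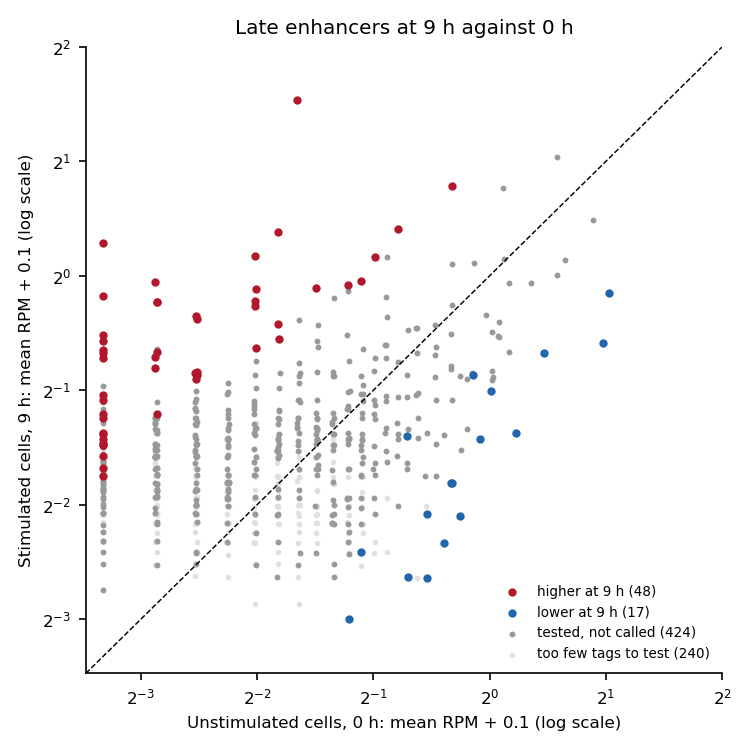
Mean level of each late enhancer in the 6 stimulated libraries at 9 h (vertical axis) against the mean of the 2 unstimulated libraries at 0 h (horizontal axis), both as RPM + 0.1 on log scales; colours mark the edgeR calls and the dashed line equal levels. The 48 called rises lie mostly at low 0 h levels, 20 of them at no tag at 0 h, and the 17 called falls at the higher 0 h levels.

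The rises were led by enhancers with no tag in unstimulated cells, for which the fold is only bounded, taking 3 tags over both 0 h libraries as the floor. Such enhancers passed the filter on low counts through stimulated groups alone and could not fall, so the direction of their change was fixed beforehand. At chr5:65042388-65042734 the tags were 0 and 0 at 0 h, 1 and 3 with both stimuli, 1 and 1 with CpG and 0 and 0 with IFN-γ at 3 h, 9 and 15, 12 and 6, and 1 and 3 at 9 h, and 15 and 30, 12 and 8, and 3 and 2 at 15 h. All 6 stimulated libraries at 9 h held a tag and neither 0 h library did. The 9 h level was at least 5.17-fold higher than at 0 h (edgeR adjusted p = 0.000790), and every fit without 1 library kept the call (highest adjusted p = 0.0366).

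Enhancer chr4:62200596-62201074 behaved likewise, with 16 and 11 tags with both stimuli, 7 and 3 with CpG and 2 and 4 with IFN-γ at 9 h and none at 0 h. It was at least 4.83-fold higher at 9 h (edgeR adjusted p = 0.000735, and at most 0.0370 without any 1 library). The next 6 rises by size were at least 2.58-fold to at least 5.39-fold and had 50 to 116 tags in all. These were chr7:126752700-126752963, chr4:132529543-132529974, chr3:10353642-10354062, chr9:57558310-57558474, chr2:90902213-90902681 and chr15:78762371-78762834. Each lost its call without the first 0 h library (adjusted p = 0.0731 to 0.153) and without the second (0.0600 to 0.132).

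Among the falls the clearest was chr12:3830405-3830553, with 0 and 0 tags with both stimuli, 0 and 1 with CpG and 1 and 3 with IFN-γ at 9 h, against 8 and 8 tags at 0 h. Its log2 change was -3.76 (SE 0.94, edgeR adjusted p = 0.00154, at most 0.0331 without any 1 library). At 15 h its tags came mostly with IFN-γ, 5 and 9, beside 2 and 0 with IFN-γ at 3 h, and so reached about the 0 h level under 1 stimulus. The next 4 falls were chr9:110510342-110510574 (log2 change -3.51), chr10:80513706-80513881 (2 tags over the 6 libraries at 9 h, and a ratio of 0 h to 9 h levels of 13.3, exact 95% interval 2.76 to 127), chr4:59806595-59807073 (log2 change -2.88) and chr14:75968864-75969099 (-2.65). They had 30 to 49 tags in all and each lost its call without the second 0 h library (adjusted p = 0.0909 to 0.258). The call at chr14:75968864-75969099 was also lost without the first 0 h library (0.0810), and that at chr10:80513706-80513881 without the first 0 h library (0.0508), the second IFN-γ library (0.0533) or the second CpG library (0.0527).

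Each stimulus was also set against 0 h at 9 h on its own; these 3 comparisons share the 0 h libraries. With both stimuli 96 late enhancers rose and 17 fell, where 22.3% of all tested enhancers were called (14.1% higher, 8.27% lower). With CpG 48 rose and 5 fell, where 6.98% were called (4.48% higher, 2.51% lower). With IFN-γ 62 rose and 14 fell, where 19.4% were called (12.9% higher, 6.59% lower). The share of late enhancers that rose was 19.6% with both, 9.82% with CpG and 12.7% with IFN-γ, which for IFN-γ is that of the background. Median log2 changes of late enhancers were 0.85, 0.52 and 0.45 with both, CpG and IFN-γ, beside 0.32, 0.05 and 0.10 in all tested enhancers. With enhancers lacking tags in a group put at their bound, the medians were 0.74, 0.36 and 0.14, beside 0.13, 0 and 0. Enhancers with no tag at 0 h made up 48 of the 96 rises, 21 of the 48 and 30 of the 62. The same counts over all tested enhancers are not given here, so this is not shown to be particular to late enhancers. Scaled to whole-library totals, both stimuli gave 79 rises and 29 falls (73.1% rises in place of 85.0%). Leaving out any 1 library of a comparison left 52 to 79, 14 to 26 and 23 to 44 calls, fewest without the first 0 h library in each.

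Stimuli were compared with each other at 9 h and at 15 h. The rule averages the stimuli with equal weight and sets no direction between them, although an enhancer can enter it through a high 15 h level under 1 stimulus alone; the 9 h libraries took no part in it. In all, 197 of the 489 tested late enhancers (40.3%) were called in 1 or more of the 6 pairs of stimuli, beside 35.5% of all tested, and 292 in none. At 9 h 139 were called (28.4%, beside 26.0% of all tested) and at 15 h 151 (30.9%, beside 23.6%). Late enhancers were chosen for a high mean in the 15 h libraries, and all tested enhancers were not. An excess of their calls at 15 h, here and below, is therefore not independent of the choice.

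Of the 3 pairs, CpG against IFN-γ had the most calls, in late enhancers as in all tested. It called 22.7% of late enhancers at 9 h and 21.9% at 15 h. At 9 h 58 were higher and 53 lower with CpG than with IFN-γ, where 21.9% of all tested enhancers were called (9.67% higher, 12.2% lower). At 15 h 61 were higher and 46 lower, where 17.4% were called (7.49% higher, 9.89% lower). Late enhancers higher with CpG were thus 11.9% of the tested at 9 h and 12.5% at 15 h. Many of these calls rest on a group with no tag. No IFN-γ tag was seen at 21 of the 58 higher at 9 h and 32 of the 61 at 15 h. No CpG tag was seen at 18 of the 53 lower at 9 h and 22 of the 46 at 15 h. The same counts over all tested enhancers are not given here. The median log2 difference of all 489 was 0.18 at 9 h and 0.22 at 15 h, beside -0.06 and 0.02 in all tested. With enhancers lacking tags in a group put at their bound, it was 0.13 and 0.21, beside -0.05 and 0. Fits without 1 library called 49 to 71 at 9 h, fewest without the second IFN-γ library, and 46 to 58 at 15 h, fewest without the first IFN-γ library.

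Many of these calls were made at both times, in late enhancers as in all tested. Of the late enhancers higher with CpG, 34 were called at both times, 58.6% of those at 9 h and 55.7% of those at 15 h, beside 47.4% and 61.2% over all tested enhancers. Of those lower with CpG, 32 were called at both, 60.4% and 69.6%, beside 51.6% and 63.8%. None of the late enhancers, and none of all tested, was called in opposite directions. The log2 differences at 9 h and 15 h correlated with r = 0.775 over the 489 late enhancers and 0.732 over the 2303 other tested enhancers, a description across enhancers that share libraries within each time. A direct test of the change in the CpG to IFN-γ difference between 9 h and 15 h, added after the data had been seen, called 0 of 489 late enhancers by edgeR and 0 by DESeq2, with 22 at an unadjusted p under 0.05. It called 0% of all tested, so it does not show that the difference stayed the same.

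**Figure D4:**
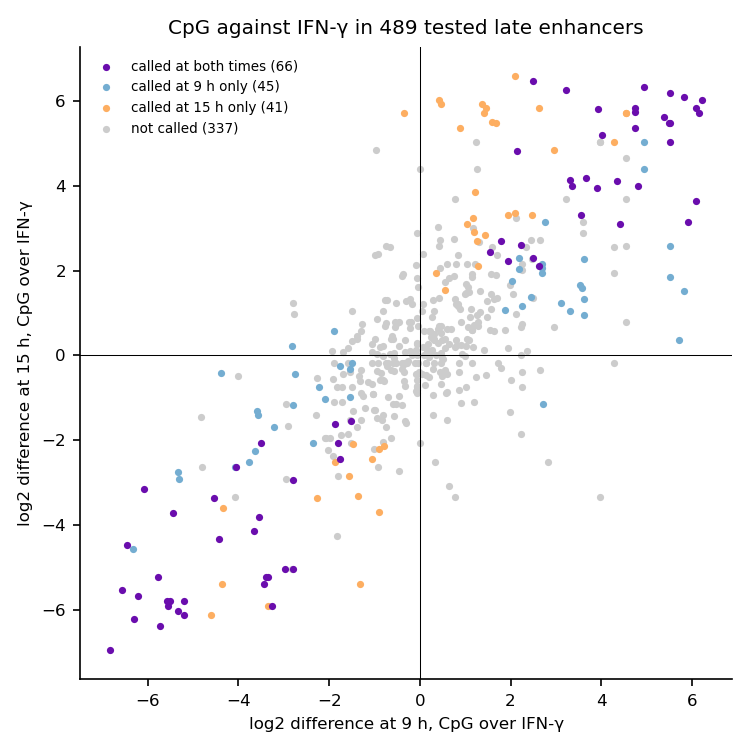
Fitted log2 difference between CpG and IFN-γ at 15 h (vertical axis) against that at 9 h (horizontal axis) for the 489 tested late enhancers; colours give the times at which edgeR called the difference, and values beyond about 5 on either axis rest on a group with no tag and depend on the prior count. The 66 enhancers called at both times lie in the upper right and lower left quadrants.

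The late enhancer with the most tags, chr19:11349540-11350041, was one of CpG. It had 5 and 1 tags at 0 h, then 8 and 18 with both stimuli, 8 and 5 with CpG and 0 and 1 with IFN-γ at 3 h. At 9 h the tags were 66 and 64 with both, 38 and 48 with CpG and 2 and 6 with IFN-γ, and at 15 h 106 and 98, 63 and 61, and 3 and 3. Every library with CpG at 9 h and 15 h lay above every other library, and IFN-γ alone gave no more than 6 tags at any time. CpG exceeded IFN-γ by 3.32 on the log2 scale at 9 h (SE 0.45, edgeR adjusted p = 1.49e-10) and by 4.13 at 15 h (SE 0.46, adjusted p = 5.05e-16). At 9 h CpG exceeded 0 h by 3.84 (SE 0.48, adjusted p = 2.11e-12). Both stimuli exceeded CpG at 9 h by 0.89 (SE 0.28, edgeR adjusted p = 0.0304), a call that was lost without any 1 of the 4 libraries (0.0657 to 0.232), under whole-library totals (0.230), with no filter (0.106) and by DESeq2 (0.0886).

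Next by tags was chr7:75319181-75319526, where IFN-γ alone lay below the unstimulated cells at 3 h and 9 h. It had 18 and 9 tags at 0 h and, with both, CpG and IFN-γ in turn, 12 and 18, 28 and 34, and 4 and 7 at 3 h, 21 and 17, 40 and 39, and 5 and 7 at 9 h, and 98 and 54, 55 and 44, and 13 and 7 at 15 h. CpG groups did not overlap IFN-γ groups at any time. CpG was higher than IFN-γ by 2.62 on the log2 scale at 9 h (SE 0.43, edgeR adjusted p = 1.53e-07) and 2.099 at 15 h (SE 0.37, adjusted p = 3.07e-06). With both stimuli the level was between those of CpG and IFN-γ at 9 h and at 15 h reached 5.72 ± 2.13 RPM, beside 3.84 ± 0.554 RPM with CpG (SD, n = 2 each); the libraries of both stimuli, 98 and 54 tags, overlapped those of CpG.

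A high level with CpG alone, and not with both stimuli, was seen at chr6:146014641-146015042. Its tags were 13 and 14 at 0 h. With both, CpG and IFN-γ they were 2 and 1, 11 and 10, and 1 and 0 at 3 h, then 2 and 6, 40 and 30, and 2 and 1 at 9 h, and 9 and 5, 37 and 27, and 3 and 0 at 15 h. Only with CpG alone did a stimulated library at 9 h or 15 h exceed the 0 h libraries. At 15 h both stimuli fell below CpG by 2.37 on the log2 scale (SE 0.44, edgeR adjusted p = 1.82e-05, at most 0.0378 without any 1 library). At 9 h CpG exceeded IFN-γ by 4.36 (SE 0.60, adjusted p = 1.52e-10).

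The third by tags, chr9:57554000-57554392, was higher with IFN-γ than with CpG alone, and was also high with both stimuli. It had 5 and 8 tags at 0 h. With both, CpG and IFN-γ it had 8 and 25, 7 and 3, and 19 and 25 at 3 h, then 22 and 28, 4 and 7, and 8 and 30 at 9 h, and 31 and 49, 14 and 6, and 34 and 40 at 15 h. CpG was lower than IFN-γ at 15 h, by -2.07 on the log2 scale (SE 0.39, edgeR adjusted p = 1.43e-05) with no overlap of libraries. At 9 h the difference was -1.81 (SE 0.50, adjusted p = 0.00400), and the call was lost without the second IFN-γ library, with 30 tags (0.471), or the first CpG library (0.0821). Both stimuli exceeded CpG at 9 h by 2.45 (SE 0.47, edgeR adjusted p = 2.64e-05).

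At chr5:142804435-142804856 IFN-γ gave a peak at 9 h and not at 15 h. Its tags were 19 and 19 at 0 h. With both, CpG and IFN-γ they were 2 and 7, 0 and 3, and 8 and 3 at 3 h, then 21 and 21, 14 and 12, and 46 and 45 at 9 h, and 24 and 32, 18 and 16, and 15 and 5 at 15 h. At 9 h IFN-γ rose above 0 h by 1.40 on the log2 scale (SE 0.34, edgeR adjusted p = 0.000976), and CpG was lower than IFN-γ, by -1.88 (SE 0.36, adjusted p = 2.06e-05). At 15 h the IFN-γ libraries lay below both 0 h libraries.

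Other enhancers of large total changed less between stimuli. Enhancer chr6:31093224-31093711 held 339 tags and had 29 and 29 tags with both stimuli, 13 and 24 with CpG and 14 and 22 with IFN-γ at 9 h, against 8 and 11 at 0 h. Both stimuli raised it above 0 h by 1.95 on the log2 scale (SE 0.41, edgeR adjusted p = 8.55e-05). Enhancer chr8:71061809-71062486, with 311 tags, had 12 and 20 tags with both, 23 and 25 with CpG and 11 and 14 with IFN-γ at 9 h, against 27 and 21 at 0 h, and no comparison called it. Its 3 h tags, 5 and 2 with both, 16 and 18 with CpG and 7 and 4 with IFN-γ, were all below those at 0 h.

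Enhancers chr19:3957868-3958203, chr9:110717027-110717155 and chr1:171671730-171672103 had 245 to 258 tags, with 0 h tags of 14 and 24, 19 and 21, and 12 and 20; none was called in any comparison. The tenth by total, chr9:62249932-62250356, had 6 and 4 tags at 0 h and 9 to 15 tags in each 9 h library. Its rise at 9 h, 1.36 on the log2 scale (SE 0.48, edgeR adjusted p = 0.0317), was lost without either 0 h library (0.136 and 0.245), without the second library of both stimuli (0.0599), under whole-library totals (0.0907), with no filter (0.133) and by DESeq2 (0.0925).

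**Figure D5:**
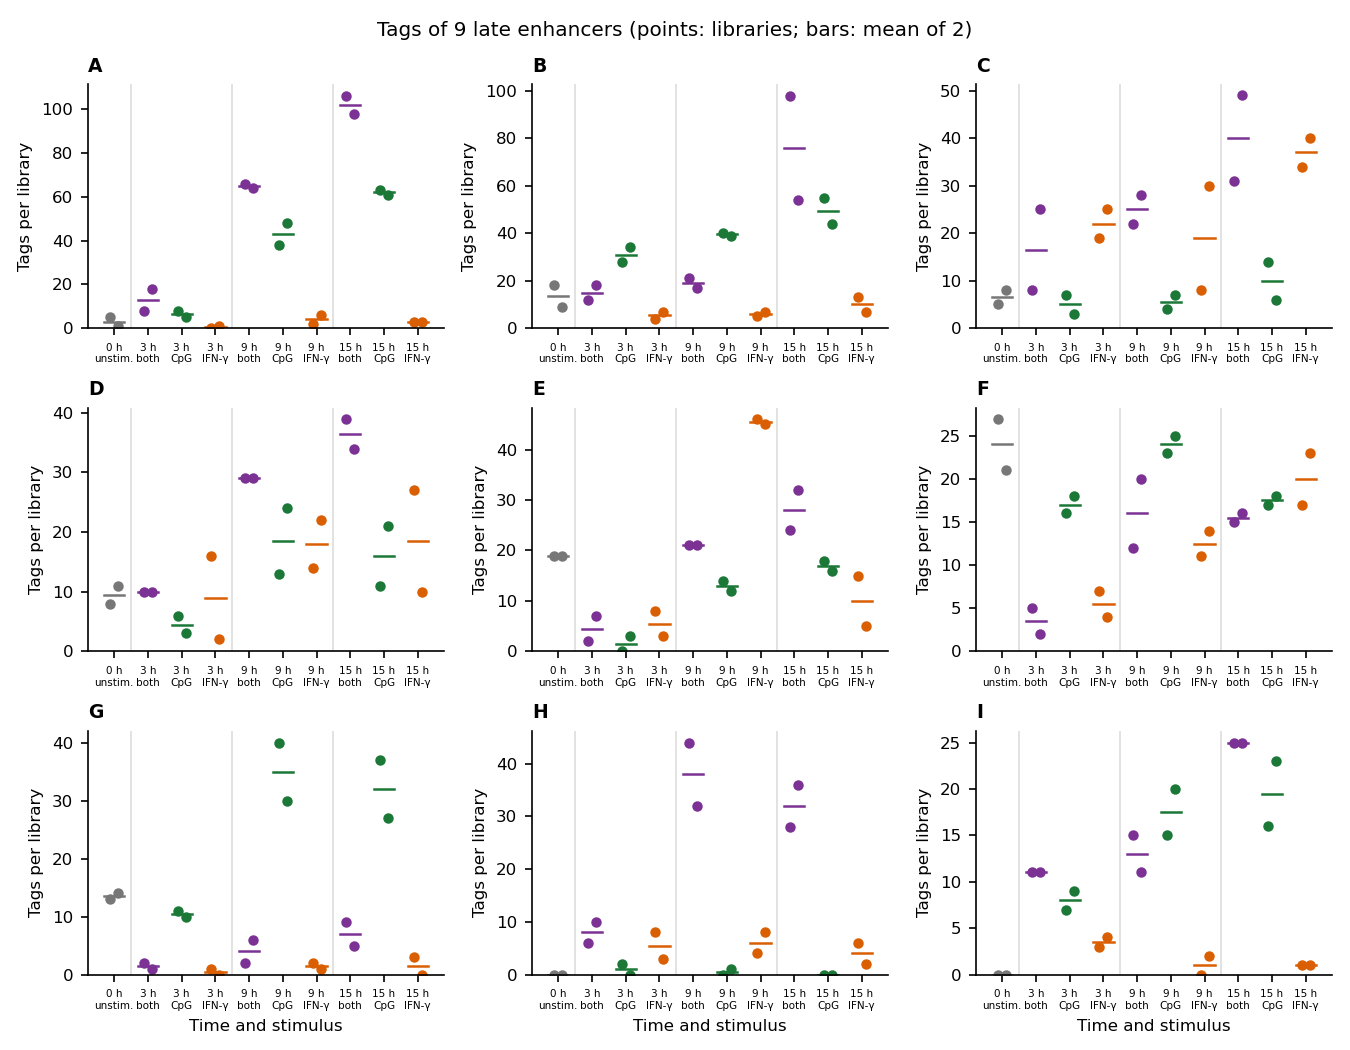
Tags per library (points) and group means (bars) by time and stimulus for 9 late enhancers: the 6 with the most tags, chr19:11349540-11350041 (A), chr7:75319181-75319526 (B), chr9:57554000-57554392 (C), chr6:31093224-31093711 (D), chr5:142804435-142804856 (E) and chr8:71061809-71062486 (F), then chr6:146014641-146015042 (G), chr16:17285443-17285962 (H) and chr19:10822778-10823211 (I). At 15 h panels A, B and I are high with CpG and with both stimuli, and G with CpG alone. Panel C is then high with IFN-γ and with both stimuli, and H with both stimuli only. Panel D is highest with both stimuli, and in E and F the 0 h level is near or above that at 15 h with 1 or more stimuli.

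The largest differences between CpG and IFN-γ were at enhancers with no tag in one of the groups. Higher with CpG at 9 h were chr19:32173751-32173942 (12 and 8 tags with CpG, none with IFN-γ, at least 6.85-fold), chr18:52698524-52698867 (at least 6.51-fold), chr18:5134057-5134568 (at least 6.16-fold) and chr3:50395061-50395239 (at least 6.16-fold). Their edgeR adjusted p was 0.000488 to 0.00248, and that of chr3:50395061-50395239 was 0.0619 without the second IFN-γ library. Higher with CpG at 15 h were chr2:77937049-77937442 (12 and 12 tags with CpG, none with IFN-γ, at least 8.25-fold), chr2:30817146-30817819 (at least 7.56-fold), chr10:94475258-94475429 (at least 6.87-fold) and chr8:111956779-111957113 (at least 6.53-fold), with adjusted p of 7.58e-05 to 0.00194. Of these 8, 5 had no tag at 0 h either.

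Lower with CpG, chr7:45708566-45708712 had its tags mainly with IFN-γ. It had no tag at 0 h. At 3 h it had none with both stimuli, none with CpG and 2 and 1 with IFN-γ, at 9 h 4 and 1, 0 and 0, and 12 and 17, and at 15 h 2 and 2, 0 and 0, and 14 and 13. CpG alone gave no tag in any of its 6 libraries, and both stimuli lay between. The level with CpG was at least 9.41-fold lower than with IFN-γ at 9 h (edgeR adjusted p = 1.24e-05) and at least 8.73-fold lower at 15 h (adjusted p = 1.49e-05). At 9 h chr10:60541971-60542573, chr4:135912762-135913073 and chr5:100704882-100705200 were at least 7.79-fold, 7.14-fold and 6.49-fold lower with CpG, with no CpG tag. At 15 h chr14:65338493-65339086, chr13:102834197-102834676 and chr2:165249665-165250071 were at least 5.82-fold, 5.17-fold and 4.85-fold lower; the last lost its call without either CpG library (adjusted p = 0.0868 and 0.0715).

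Both stimuli were set against each alone. Against IFN-γ, 42 late enhancers were higher and 9 lower with both at 9 h, where 6.45% of all tested were called (4.19% higher, 2.26% lower), and 63 were higher and 19 lower at 15 h, where 9.17% were called (5.16% higher, 4.01% lower). The share of late enhancers that were higher was 8.59% at 9 h and 12.9% at 15 h. Against CpG, 28 were higher and 9 lower with both at 9 h, where 6.55% were called (4.66% higher, 1.90% lower), and 23 were higher and 6 lower at 15 h, where 5.05% were called (3.40% higher, 1.65% lower). Of the higher calls against IFN-γ, 14 at 9 h and 27 at 15 h had no tag with IFN-γ. Of those against CpG, 4 at 9 h and 7 at 15 h had no tag with CpG. Among the lower calls, 2 and 4 against IFN-γ and 1 and 1 against CpG had no tag with both stimuli. As above, the same counts over all tested enhancers are not given, so these are not shown to be particular to late enhancers. The median log2 difference of late enhancers was 0.21 and 0.56 against IFN-γ and 0.14 and 0.32 against CpG at 9 h and 15 h. In all tested enhancers it was -0.0024 and 0.09 against IFN-γ and 0.02 and 0.11 against CpG. With enhancers lacking tags in a group put at their bound, late enhancers had 0.18 and 0.51 against IFN-γ and 0.03 and 0.28 against CpG. All tested enhancers then had 0 and 0.004 against IFN-γ and 0 and 0 against CpG.

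Scaling bore on these counts. Under whole-library totals both against CpG at 9 h gave 11 higher and 10 lower (52.4% higher in place of 75.7%), and the median of late enhancers was -0.09, with a median of -0.19 in all tested. Both against IFN-γ at 15 h gave 84 higher and 9 lower (90.3% in place of 76.8%), with medians of 0.97 in late enhancers and 0.49 in all tested. Leaving out 1 library left 11 to 21 and 24 to 39 calls against IFN-γ at 9 h and 15 h, and 8 to 12 and 7 to 17 against CpG, fewest without the first (9 h) or second (15 h) IFN-γ library and without the second CpG library at both times.

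Of the 63 late enhancers higher with both than with IFN-γ at 15 h, 35 were also higher with CpG than with IFN-γ with no call between both and CpG (7.16% of the 489, beside 2.51% of all tested), and 20 were called in that pair alone (4.09%, beside 2.08%). Conversely, 14 were lower with both and lower with CpG than with IFN-γ (2.86%, beside 2.26%). Higher with both than with either single stimulus were 11 enhancers at 9 h (2.25%, beside 0.752% of all tested) and 8 at 15 h (1.64%, beside 0.573%). Lower with both than with either were 0 at 9 h (beside 0.358% of all tested) and 1 at 15 h (0.204%, beside 0.143%). Enhancers higher with both than with IFN-γ were called at both times in 32 cases, 76.2% of those at 9 h and 50.8% of those at 15 h, beside 53.0% and 43.1% over all tested. Those higher with both than with CpG were called at both times in 12 cases, 42.9% and 52.2%, beside 35.4% and 48.4%. None of these differences from all tested enhancers was itself tested, and those at 15 h are not independent of the choice of members. A departure from additivity of the log2 responses at 9 h was called at 0 of 489 late enhancers by edgeR and at 0 by DESeq2 (0% of all tested), with 42 at an unadjusted p under 0.05 and a median of -0.33, beside -0.15 in all tested. Where a group has no tag, as at 0 h in 75 of the 489, the fitted departure depends on the prior count. These medians hold such values, so nothing is read from their difference.

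Enhancer chr16:17285443-17285962, with 190 tags, was high with both stimuli only. It had none at 0 h. With both, CpG and IFN-γ it had 6 and 10, 2 and 0, and 8 and 3 tags at 3 h, then 44 and 32, 0 and 1, and 4 and 8 at 9 h, and 28 and 36, 0 and 0, and 6 and 2 at 15 h. The libraries of both stimuli lay above all single-stimulus libraries at 9 h and 15 h. The level with both was at least 26.2-fold above 0 h at 9 h (edgeR adjusted p = 2.00e-18) and at least 20.9-fold above CpG at 15 h (adjusted p = 8.47e-12). It exceeded IFN-γ by 2.86 on the log2 scale at 9 h (SE 0.45, edgeR adjusted p = 2.33e-07) and 2.56 at 15 h (SE 0.51, adjusted p = 8.22e-05), and these calls held without any 1 library.

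Tags with both stimuli and almost none otherwise were found at chr3:15575089-15575313. It had 2 and 11 tags with both, 1 and 0 with CpG and none with IFN-γ at 9 h, 13 and 13 with both and none with CpG or IFN-γ at 15 h, and none at 0 h and 3 h. By these tags it met the rule and the filter through the libraries of both stimuli alone, so the direction of its difference was fixed beforehand. Both were at least 8.47-fold above CpG at 15 h (edgeR adjusted p = 0.00267), a call lost without either CpG library (0.0795 and 0.0722). Higher with both than with CpG at 15 h were also chr17:6366543-6367013, with 14 and 14 tags and none (at least 9.12-fold, adjusted p = 0.000312), and chr3:15535136-15535532 (at least 6.19-fold, edgeR adjusted p = 0.0147, lost without any 1 of its libraries). At 9 h chr16:24831758-24832151 had 9 and 10 tags with both and none with CpG (at least 6.46-fold, adjusted p = 0.000801).

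Against IFN-γ alone, chr2:77937049-77937442 had 23 and 14 tags with both stimuli and none with IFN-γ at 15 h, while CpG gave 12 and 12. Both exceeded IFN-γ at least 12.4-fold (edgeR adjusted p = 5.22e-06). It had no tag at 0 h. At chr6:65119693-65120076 the tags at 15 h were 19 and 17 with both, 3 and 4 with CpG and none with IFN-γ (at least 12.1-fold over IFN-γ, adjusted p = 1.18e-05). Enhancer chr8:46885923-46886191 had 18 and 15, 2 and 1, and none (at least 11.1-fold over IFN-γ, adjusted p = 9.06e-05). At chr3:58424715-58425015 no library of IFN-γ at any time held a tag, and both exceeded IFN-γ at least 10.8-fold at 9 h (edgeR adjusted p = 1.19e-06) and at least 12.1-fold at 15 h (adjusted p = 7.77e-06).

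Fewer enhancers were lower with both than with a single stimulus. Enhancer chr11:117224989-117225392 had no tag with both, 12 and 8 with CpG and 0 and 4 with IFN-γ at 9 h, at least 6.54-fold lower with both than with CpG (edgeR adjusted p = 0.00253). The call was lost without either library of both stimuli (0.0643 and 0.0545). At chr18:11927318-11927621 both gave no tag at 9 h, and IFN-γ gave 10 and 10 (at least 6.36-fold lower with both, adjusted p = 0.00397, lost without either library of both stimuli at 0.0804 and 0.0589). Lower with both than with either at 15 h was chr10:81192210-81192702, with none, 9 and 6 with CpG, and 3 and 6 with IFN-γ; the bounds were at least 5.12-fold and 2.98-fold (edgeR adjusted p = 0.00949 and 0.0304), and the call against CpG was lost without either library of both stimuli or the first CpG library (0.0914 to 0.121), and that against IFN-γ without any 1 of its 4 libraries and with no filter (0.0551 to 0.193).

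In 98 of the 729 late enhancers (13.4%, against 11.2% of the others) no tag was seen in either 0 h library. A count of 0 allows up to 3 tags over both libraries, so these are enhancers at or below that floor and not ones shown to be silent. Against 0 h they could not be lower, so the direction of any change from 0 h was fixed. Of the 5 with the most tags, chr19:10822778-10823211 had 199. With both, CpG and IFN-γ it had 11 and 11, 7 and 9, and 3 and 4 tags at 3 h, then 15 and 11, 15 and 20, and 0 and 2 at 9 h, and 25 and 25, 16 and 23, and 1 and 1 at 15 h. The libraries of both stimuli and of CpG overlapped at 9 h, and neither overlapped those of IFN-γ at 9 h or 15 h. At 9 h it was at least 8.96-fold above 0 h with both (edgeR adjusted p = 2.86e-07) and at least 11.8-fold with CpG (adjusted p = 6.16e-08). With 2 tags over the IFN-γ libraries at 9 h and 15 h, the ratio of CpG to IFN-γ was 18.0 (exact 95% interval 4.62 to 154) at 9 h and 20.1 (5.20 to 172) at 15 h, edgeR adjusted p = 1.46e-05 and 1.11e-05.

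Late enhancers lay near each other more often than other enhancers lay near a late one. Within 20 kb another late enhancer was found for 219 of 729 (30.04%), and a late enhancer for 15.4% of the 3240 others. Any enhancer of 30 or more tags lay within 20 kb of 58.7% of late and 63.8% of other enhancers, and no test was made of these shares. No 2 late enhancers overlapped, but neighbours may share a transcript start region, so they are not independent readings. Chained at 20 kb they formed 93 groups of 2 or more, of which 26 held 3 or more (85 enhancers) and the largest held 5.

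The group of 5 spanned chr6:31088844-31098826 and included chr6:31093224-31093711. Its summed level was 1.10, 1.14, 2.98 and 3.90 RPM at 0, 3, 9 and 15 h. At 15 h it was 6.55 RPM with both, 3.07 with CpG and 2.07 with IFN-γ. The 4 late enhancers in chr15:74790406-74803077 were instead high with IFN-γ. Their sum was 0.147 RPM at 0 h and, with both, CpG and IFN-γ, 1.29, 0.186 and 3.11 RPM at 9 h and 1.32, 0.541 and 2.90 RPM at 15 h. Those in chr9:57554000-57560036, with 3 late enhancers, had 3.66, 0.929 and 3.91 RPM at 15 h, in the same order.

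Of the other groups of 4, chr5:65041617-65057845 was highest with both stimuli at 15 h (3.33, 1.43 and 0.377 RPM with both, CpG and IFN-γ, and 0.0723 RPM at 0 h). So was chr17:35404832-35429480 (2.46, 0.969 and 1.05 RPM, and 0.400 RPM at 0 h). In contrast chr1:87548733-87586081 held 2.22, 0.602, 1.57 and 1.67 RPM over the 4 times and was lowest with both at 15 h (0.988, 2.13 and 1.88 RPM). The last group of 4, chr5:139389530-139395566, had 1.78, 1.70 and 0.790 RPM at 15 h with both, CpG and IFN-γ. By these means, given without spread and not tested, the groups named differed in the stimulus with the highest level.

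Late enhancers measured 339 bases at the median (end minus start), and others 364. They were 37 of the 148 enhancers of 30 or more tags on chromosome 19 and 6 of 47 (12.8%) on the X, the highest and lowest shares among chromosomes with any late enhancer.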

How the data were processed

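The members and lists were chosen with earlier results of these data known. The authors deposited raw tag counts and, per the file headers and values, RPM relative to whole-library tags (named TPM in the file) for the same 11222 enhancers. Per the submitters' processing notes the build was mm39 and the tools, in no given order, HISAT2 2.1.0, BWA 0.7.10, Trimmomatic 0.38 and FastQC 0.11.5; the enhancer caller is not given in the sources used here. Starts are printed as deposited, with no statement of whether they count from 0 or 1.

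Counts were tested with edgeR 4.0.16 in R 4.3.3 (robust quasi-likelihood, two-sided, 10 groups, 10 residual degrees of freedom, TMM on enhancer tags, filterByExpr with minimum count 5 and minimum total 15), and p-values were adjusted over 2792 enhancers. The pooled 9 h contrast averages the log2 changes of the 3 stimuli. Standard errors are the log2 change over the square root of F. The common biological coefficient of variation was 17.8%. Bounds use a floor of 3 tags over a group, and ratios with 1 to 3 tags have exact 95% intervals; both cover counting error only. Named enhancers were the 10 with most tags, the 5 with most tags among those with none at 0 h, up to 8 rises and 5 falls at 9 h and up to 4 each way per pair of stimuli by log2 difference with non-overlapping groups, and those nearest the threshold; chr6:146014641-146015042 enters through its fall with both against CpG. Alternatives were RLE factors, whole-library totals, no filter, DESeq2 1.42.0, the replicate number as a block and leaving out each library. The annotation at hand is of an older build, so nearby genes, sequences and motifs are not analysed here.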

Additional observations from a re-analysis of the deposited data

Results flagged for a closer look

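At 9 h, among those called between CpG and IFN-γ, 15 late enhancers had every CpG library below and every IFN-γ library above both 0 h libraries (3.07% of the 489, beside 1.97% of all tested), and 12 the reverse (2.45%, beside 2.94%). Those among the named enhancers are given with the tags at 9 h with CpG and with IFN-γ, then those at 0 h, and the fitted log2 difference of CpG over IFN-γ by edgeR (Benjamini-Hochberg adjusted p); where a group has no tag the fitted value depends on the prior count and is no bound. This is the difference between the CpG and IFN-γ effects against the same 0 h cells, so the edgeR test of it is the test of the difference itself. It does not show that CpG or IFN-γ alone differed from 0 h. The places above and below 0 h are the order of the libraries only, and several rest on few tags.

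By RPM, CpG libraries lay below and IFN-γ libraries above those at 0 h at 5 of them. At chr10:60541971-60542573 the tags were 0 and 0, 12 and 12, and 1 and 1 (-6.57, adjusted p = 0.000118); with 2 tags in all at 0 h, under the floor of 3, CpG is not shown to lie below 0 h there. At chr13:102834197-102834676 they were 0 and 0, 9 and 11, and 4 and 2 (-6.30, adjusted p = 0.000494). At chr18:11927318-11927621 they were 0 and 1, 10 and 10, and 2 and 3 (-4.08, adjusted p = 0.00273). At chr4:135912762-135913073 they were 0 and 0, 11 and 11, and 10 and 4 (-6.45, adjusted p = 9.51e-05). At chr5:142804435-142804856, with the most tags of these, they were 14 and 12, 46 and 45, and 19 and 19 (-1.88, adjusted p = 2.06e-05).

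CpG lay above and IFN-γ below 0 h at 4. At chr18:5134057-5134568 the tags were 6 and 12, 0 and 0, and 5 and 4 (6.08, adjusted p = 0.000679). At chr1:87579228-87579559 they were 13 and 9, 1 and 2, and 5 and 2 (2.71, adjusted p = 0.0184); the second IFN-γ library and the second 0 h library had 2 tags each, and the first of these was lower in RPM. At chr6:146014641-146015042 they were 40 and 30, 2 and 1, and 13 and 14 (4.36, adjusted p = 1.52e-10). At chr7:75319181-75319526 they were 40 and 39, 5 and 7, and 18 and 9 (2.62, adjusted p = 1.53e-07).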

How the results depend on the processing

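Numbers of late enhancers called moved with the tool, the filter and the number of libraries, and no direction reversed among the calls named. In the order pooled 9 h, IFN-γ, CpG and both against 0 h, CpG against IFN-γ, both against IFN-γ and both against CpG at 9 h, then the same 3 pairs at 15 h, the main counts were 65, 76, 53, 113, 111, 51, 37, 107, 82 and 29. DESeq2 called 17, 16, 14, 41, 32, 9, 9, 28, 21 and 7. Over all tested enhancers the main counts were 458, 543, 195, 624, 611, 180, 183, 485, 256 and 141. Those of DESeq2 were 136, 159, 41, 211, 180, 28, 56, 137, 55 and 36, of 789 to 1817 enhancers with an adjusted p. With no filter on low counts the tests called 32, 34, 25, 73, 75, 23, 12, 66, 42 and 16, where far more enhancers were tested. Of all 11222 enhancers they called 315, 315, 74, 394, 382, 68, 67, 250, 103 and 65. Whole-library totals moved 1 count by over 1.5 times, both against CpG at 9 h (21), and RLE factors none. Leaving out each library gave 16 to 58, 23 to 44, 14 to 26, 52 to 79, 49 to 71, 11 to 21, 8 to 12, 46 to 58, 24 to 39 and 7 to 17, with fewer samples in each fit. Departure from additivity at 9 h stayed at 0 in all of these fits, and the change of the CpG to IFN-γ difference between 9 h and 15 h was called at 0 to 1 enhancers, 1 without the second IFN-γ library at 9 h or the first at 15 h. Over all tested enhancers, whole-library totals shifted the median log2 change to -0.04 (0.11 with TMM) for the pooled 9 h comparison and to 0.49 (0.09 with TMM) for both against IFN-γ at 15 h.

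Choosing the late enhancers again without 1 library at 3 h or 15 h gave 641 to 894 of them. A minimum of 60 tags left 258, a ratio of at least 3 left 323, and the rule on TMM-scaled counts 612, of which 608 were shared. The replicate block called 61, 70, 51, 108, 107, 48, 27, 104, 76 and 26. The replicate numbers only name samples: over 45 pairs of groups the differences between replicates 1 and 2 correlated from -0.054 to 0.036, none above 0.1. Of 115 calls tested for named enhancers, 58 were lost in 1 or more fits without a library, and DESeq2 gave an adjusted p for 77 and called 64. Where a cause is not shown by the alternative's own construction, the cause was not tested. Most late enhancers hold few tags per library, which limits the calls that can be made.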
